A study of Mus musculus with 6 samples.

Results

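The circadian clock genes described here are 10 genes, the activators Arntl, Npas2 and Clock, the repressors Per1, Per2, Per3, Cry1 and Nr1d1, and the output factors Dbp and Tef. A probe set was taken as theirs when one of these names was its only gene symbol in the array annotation, which gave 18 of the 22626 probe sets tested and 10 of the 12393 genes. They were measured in liver RNA on the Affymetrix Mouse Genome 430A 2.0 array in DUhTP mice, a line bred for high treadmill performance, and in the unselected control line DUC, with 3 arrays per line and 6 in all. Both lines were 70 days old and, per the study's methods, male, and the labels name no drug and no engineered allele for either. Both lines are described as non-inbred and go back to crosses of outbred and inbred founders. The methods speak of 3 pools per line whereas the labels describe a single mouse per array, so that p-values measure the spread between arrays, whichever these are. The time of day at which the livers were taken is not given in the sources used here, nor whether it was the same for DUhTP and DUC. A lower level of a rhythmic mRNA, a daily cycle that runs earlier or later, and a different hour of sampling cannot be told apart. Values are PLIER intensities in arbitrary units.

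The liver clock is a feedback loop of transcription. BMAL1, the product of Arntl, pairs with CLOCK or NPAS2 and switches on the Per, Cry and Nr1d genes and the output factors Dbp and Tef through E-boxes. PER and CRY proteins then block BMAL1, and REV-ERB proteins, the products of Nr1d1 and Nr1d2, shut down Arntl, Npas2, Clock, Cry1 and Nfil3 through ROR elements. DBP and TEF act on D-boxes, where NFIL3 (also named E4BP4) opposes them. In mouse liver the mRNAs of Nr1d1, Dbp, Tef and the Per genes peak between daytime and dusk, and those of Arntl, Npas2, Clock and Cry1 between late night and dawn. These are the phase groups compared below.

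The promoter windows are shown because the phase groups are usually tied to these motifs. The 250 bases before each start in RefSeq (GRCm38.p6) were searched on both strands for the E-box CACGTG, the E'-box CACGTT, the D-box TTATGTAA and the ROR element TAGGTCA or TGGGTCA. Of the 10 genes, 9 had at least 1 window in the table, and they had 14 windows in all. An E-box was found in 3 genes (Per1, Cry1 and Tef), an E'-box in 2 (Cry1 and Nr1d1), a D-box in 1 (Per3) and a ROR element in 0. Counted by window, 4 of the 14 held the E-box, 2 the E'-box, 1 the D-box and 0 the ROR element. Of all 32851 windows, 6.02% held the E-box, 3.85% the E'-box, 0.819% the D-box and 5.38% the ROR element. A gene with several starts has more windows in which a motif can be found, so the counts by gene are not comparable with these shares. A match is a description of the letters only. In the sequences that follow, each read 5′ to 3′ on the strand of its gene, capitals mark the motifs.
Per1, chr11:69098736-69098835, plus strand, E-box 166 bases before the start: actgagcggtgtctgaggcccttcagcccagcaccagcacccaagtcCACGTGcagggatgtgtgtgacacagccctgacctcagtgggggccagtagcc
Tef, chr15:81802499-81802598, plus strand, E-box 127 bases before the first start: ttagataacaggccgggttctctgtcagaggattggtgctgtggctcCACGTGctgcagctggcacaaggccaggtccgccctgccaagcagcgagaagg
Nr1d1, chr11:98775378-98775477, minus strand, E'-box (read as AACGTG) 28 bases before the start: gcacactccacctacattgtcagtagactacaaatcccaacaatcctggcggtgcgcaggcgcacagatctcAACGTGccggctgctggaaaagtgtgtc
Cry1, chr10:85185062-85185161, minus strand, E-box 60 and E'-box 79 bases before the start: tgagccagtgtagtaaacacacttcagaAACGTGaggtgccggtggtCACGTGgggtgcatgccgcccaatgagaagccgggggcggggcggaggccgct
Per3, chr4:151044816-151044915, minus strand, D-boxes 205 and 158 bases before the start: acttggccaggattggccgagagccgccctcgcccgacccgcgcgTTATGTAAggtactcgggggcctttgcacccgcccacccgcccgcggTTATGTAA
Nfil3, chr13:52981040-52981139, minus strand, ROR element (read as TGACCTA) 12 bases before the start: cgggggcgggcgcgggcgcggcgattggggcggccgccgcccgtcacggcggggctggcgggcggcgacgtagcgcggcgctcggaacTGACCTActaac
Nfil3 is no member and is shown as a called gene of the regulator list. Nr1d2, the other called regulator, and the outputs Usp2, Nampt and Noct were searched in the same way and their windows held none of the 4 motifs. The second Tef start also held an E-box, 138 bases before it. The Per1 stretch belongs to the first of its 2 starts, and the window of the second held none of the 4 motifs. The windows of Arntl, Npas2, Clock and Dbp held none of the 4 motifs within these bases.

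With no constant added, none of the 18 member probe sets passed an adjusted p of 0.05 in limma's moderated test with Benjamini-Hochberg adjustment. Of all probe sets 2.41% passed (1.36% higher and 1.05% lower in DUhTP). With 16 added to every intensity, which the study's FC match better, 4 of the 18 passed beside 8.62% of all, as given further below. The values that follow are with no constant unless 16 added is named. At an unadjusted p under 0.05 there were 6 of 18, beside 21.1% of all. By phase group, of the 12 probe sets of the daytime to dusk genes, 11 had a log2 fold change below 0, with a median of -0.58. Of the 6 probe sets of the late night to dawn genes, 4 were above 0, with a median of 0.15. The median over all probe sets tested was -0.02. In 5 member probe sets every DUhTP array lay below every DUC array, and all 5 belonged to Nr1d1, Dbp, Tef and Per1. Over all probe sets 15.8% were separated in that direction. In 1 member probe set, of Npas2, every DUhTP array lay above every DUC array, which held for 13.6% of all probe sets. In bulk liver, fewer cells of a type and less RNA per cell cannot be told apart.

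**Figure D1:**
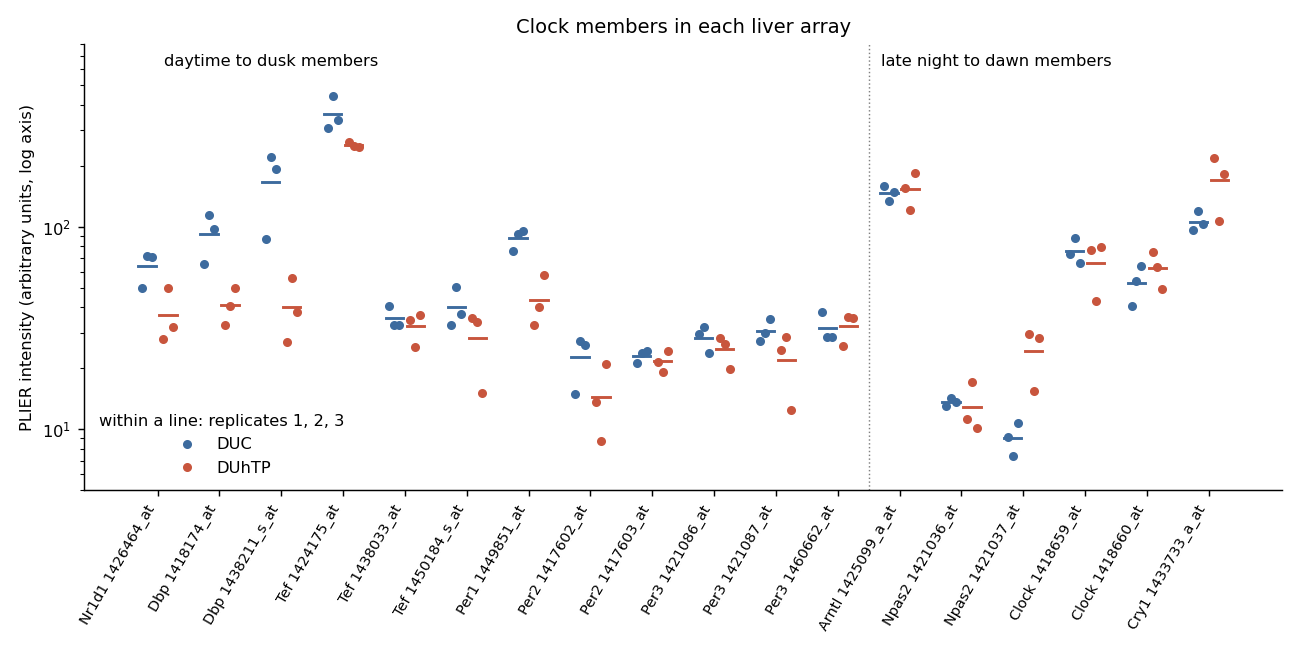
Intensity (PLIER, arbitrary units, log axis) of each of the 18 member probe sets in each array, DUC in blue and DUhTP in red, with replicates 1, 2 and 3 from left to right within a line and a bar at the mean. The blue and red points are apart for Nr1d1, Per1, both Dbp probe sets, the first Tef probe set and the second Npas2 probe set, and overlap in the other 12.

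Per1, the period gene that also responds directly to glucocorticoid and feeding signals, was measured by 1449851_at. Its intensity was 32.8, 40.3 and 58.1 in DUhTP and 76.0, 92.1 and 94.99 in DUC. All DUhTP arrays were lower and the lines did not overlap. The mean was 43.7 ± 13.0 against 87.7 ± 10.3 (SD, n = 3 arrays each), an FC of -2.05 and a log2 fold change of -1.04 ± 0.23 (SE), with an adjusted p of 0.0852 in limma.

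Dbp, whose protein drives many rhythmic liver genes through D-boxes, was measured by 2 probe sets that both lay lower in DUhTP. In 1438211_s_at the intensity was 26.9, 56.0 and 37.9 in DUhTP and 86.6, 222 and 192 in DUC. In 1418174_at it was 32.8, 40.7 and 49.8 in DUhTP and 65.2, 114 and 97.1 in DUC. The lines did not overlap in either, and DUC replicate 1 was the lowest control in both. The FC was -4.02 in the first (log2 fold change -2.01 ± 0.44 SE, adjusted p = 0.0800 in limma) and -2.22 in the second (-1.15 ± 0.26 SE, adjusted p = 0.0865 in limma). The larger FC of the first probe set was the furthest from 0 among the 18.

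Nr1d1 encodes REV-ERB alpha, the repressor that links the clock to lipid and bile acid metabolism. The intensity of 1426464_at was 27.8, 49.93 and 32.0 in DUhTP and 50.04, 72.1 and 70.7 in DUC. The lines were separate only by the narrow step from DUhTP replicate 2 to DUC replicate 1. The FC was -1.79, and the log2 fold change of -0.84 had a 95% interval from -1.50 to -0.18 with an adjusted p of 0.161 in limma.

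Tef, the close relative of Dbp, had 3 probe sets that did not move alike. In 1424175_at, the brightest of them, the intensity was 261, 250 and 247 in DUhTP and 306, 442 and 336 in DUC. The DUhTP arrays lay within a narrow band under all controls, with an FC of -1.41 (log2 fold change -0.50, 95% interval -0.90 to -0.10, adjusted p = 0.165 in limma). The lines overlapped in 1438033_at (log2 fold change -0.14, adjusted p = 0.727) and in 1450184_s_at (-0.58, adjusted p = 0.428).

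Per2 and Per3, the other period genes, gave no separation of the lines. Per2 was dim, and its probe set 1417602_at had intensities of 13.7, 8.71 and 21.0 in DUhTP and 14.8, 27.1 and 26.0 in DUC. These overlapped, with a log2 fold change of -0.69 and a 95% interval from -1.65 to 0.27 (adjusted p = 0.371), and the other probe set of Per2, 1417603_at, gave -0.10 (adjusted p = 0.737). The 3 probe sets of Per3 gave log2 fold changes of -0.20 (1421086_at), -0.57 (1421087_at) and 0.03 (1460662_at), with adjusted p of 0.604, 0.381 and 0.957 in limma. The last was the only daytime to dusk probe set above 0, and its sign changed with the array left out. All of the Per2 probe sets and 2 of the 3 of Per3 were among the dimmest 33.3% of the array.

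**Figure D2:**
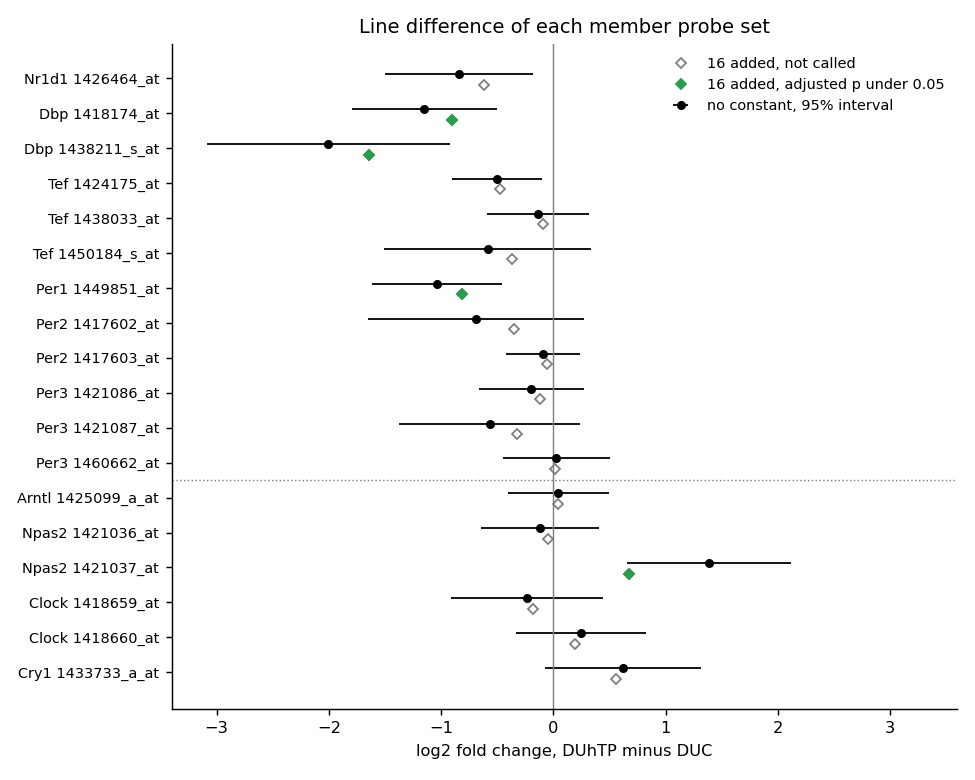
Log2 fold change, DUhTP minus DUC, of each member probe set: black points and bars give the fit with no constant and its 95% interval, diamonds the fit with 16 added to every intensity, filled green where the adjusted p was under 0.05. Daytime to dusk genes stand above the dotted line and late night to dawn genes below it, and the diamonds lie nearer to 0 than the points.

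Arntl encodes BMAL1, the partner without which the loop does not run. Its intensity in 1425099_a_at was 155, 121 and 185 in DUhTP and 160, 134 and 148 in DUC. The lines overlapped and their means of 154 ± 31.8 and 147 ± 13.0 (SD, n = 3 arrays each) were close. The log2 fold change was 0.04 with a 95% interval from -0.41 to 0.50 (adjusted p = 0.919 in limma), so a difference inside that interval is not excluded. The interval is no detection limit, since larger differences such as that of Per1 also missed the threshold with 3 arrays per line.

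Npas2, which can take the place of Clock beside BMAL1, was the member probe set furthest above 0. The intensity of 1421037_at was 29.6, 15.4 and 28.2 in DUhTP and 9.17, 7.37 and 10.7 in DUC. Every DUhTP array was higher, with DUhTP replicate 2 closest to the controls. The FC was 2.61 (log2 fold change 1.39 ± 0.30 SE, adjusted p = 0.0750 in limma). This probe set is dim, at percentile 21.7 of all probe sets by mean intensity, and the other probe set of Npas2, 1421036_at, was dim as well and gave -0.12 with overlapping lines (adjusted p = 0.795).

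Clock, the usual partner of BMAL1, had 2 probe sets of opposite sign. In 1418659_at the log2 fold change was -0.24 with a 95% interval from -0.91 to 0.44, and in 1418660_at it was 0.25 with an interval from -0.33 to 0.83. The lines overlapped in both (adjusted p = 0.677 and 0.597 in limma).

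Cry1, the late repressor of the loop, had intensities of 219, 107 and 183 in DUhTP and 95.9, 119 and 103 in DUC (1433733_a_at). Replicates 1 and 3 of DUhTP were above every control, whereas DUhTP replicate 2 lay among the controls. The FC was 1.54, and the log2 fold change of 0.62 had a 95% interval from -0.08 to 1.32 (adjusted p = 0.282 in limma).

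Whether a constant was added to the deposited values before the logarithm in the study is not stated, and it decided calls among the members. The study's FC of 2.81 for Srebf1, 1.78 for Slc2a2 and -1.65 for Hsph1 (1423566_a_at) equal those found here with 16 added. With no constant they were 2.98, 1.79 and -1.72, and Pck1 was -1.73 on both scales. With 16 added to every intensity, 4 of the 18 member probe sets passed, beside 8.62% of all probe sets (3.92% higher and 4.7% lower in DUhTP). Per gene this was 3 of 10 beside 11.3% of all genes, with Npas2 higher (5.31% of all genes were) and Per1 and Dbp lower (6% were). The FC on that scale was 1.59 for Npas2 (adjusted p = 0.0264), -1.76 for Per1 (adjusted p = 0.0140), and -3.13 and -1.87 for Dbp (adjusted p = 0.00898 and 0.0154). Nr1d1 gave -1.54 (adjusted p = 0.0567) and Cry1 1.47 (adjusted p = 0.141). These calls depended on single arrays. Without DUhTP replicate 2, 5 genes passed with 16 added, namely Npas2 and Cry1 higher and Per1, Dbp and Nr1d1 lower. Without DUC replicate 2 Dbp alone passed, without DUC replicate 3 there were 0, and without any one of the other 3 arrays Per1 and Dbp passed. The share of all genes that passed is not given for these fits. The counts therefore show only which calls changed, not whether the members stand out.

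The phase groups were then compared array by array. For each gene the brightest probe set was taken, and the log2 intensities were averaged over the 6 daytime to dusk genes and over the 4 late night to dawn genes. The daytime to dusk mean was 5.29, 5.70 and 5.63 in DUhTP and 6.04, 6.45 and 6.36 in DUC, so that all DUhTP arrays were lower. The late night to dawn mean was 6.55, 5.76 and 6.54 in DUhTP and 5.82, 5.83 and 5.84 in DUC. Here the controls were nearly identical, and DUhTP replicate 2 lay just under them while the other 2 DUhTP arrays lay above. The line difference in this mean came mostly from the dim Npas2 probe set (log2 fold change 1.39) and then from Cry1 (0.62). Arntl stood at 0.04 and Clock at -0.24, and the other Npas2 probe set, not used here, gave -0.12. The daytime to dusk mean minus the late night to dawn mean was -1.27, -0.06 and -0.91 in DUhTP and 0.22, 0.62 and 0.52 in DUC. The sign of this score has no meaning, since it sets different probe sets against each other, and only its difference between lines is read. It was lower in every DUhTP array, and the line means differed by -1.20 with a pooled SD of 0.46. As the members were chosen with results known, no p is given for this score. An exact two-sided permutation test of 3 against 3 arrays could not go below 0.1 in any case.

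**Figure D3:**
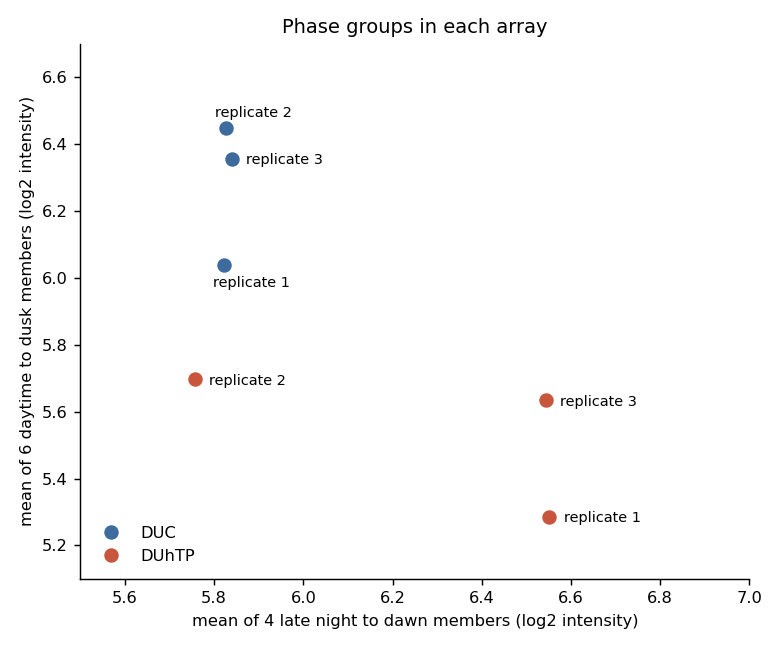
Mean log2 intensity of the 6 daytime to dusk genes (vertical axis) against that of the 4 late night to dawn genes (horizontal axis) in each array, with the brightest probe set per gene, DUC in blue and DUhTP in red. The 3 DUC arrays lie above all DUhTP arrays on the vertical axis, DUhTP replicates 1 and 3 lie to the right of them, and DUhTP replicate 2 lies just to their left; the level on one axis is not comparable with that on the other.

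The arrays of 1 line also differed among themselves. By the brightest probe sets, DUC replicate 1 was the lowest control in 5 of the 6 daytime to dusk genes and DUhTP replicate 1 the lowest of its line in 4 of 6. DUhTP replicate 2 was the lowest of its line in 4 of 4 late night to dawn genes. Without DUhTP replicate 2 the difference between the lines in the phase score was -1.54. DUhTP replicate 2 also had the lowest summed level of exocrine pancreas markers. That sum, over 11 of 13 listed markers measured, was 4537, 1030 and 2847 in DUhTP and 5269, 10270 and 7752 in DUC, and none of these markers passed the test while 6 passed as lower with 16 added. Markers of hepatocytes, the labelled tissue's main cells, summed to between 59169 and 61841 in DUhTP and between 60545 and 63508 in DUC, and 0 of 6 passed, while Hnf4a passed as lower with 16 added. Of 9 Kupffer cell and leukocyte markers 1, Clec4f, was higher, 4 were higher and 1 lower with 16 added, and their sum was 2575 to 3455 in DUhTP and 1944 to 2568 in DUC. Endothelial markers summed to between 1728 and 1837 in DUhTP and between 1538 and 1655 in DUC, and 0 of 6 passed, while Stab2 passed as higher with 16 added. Of 6 stellate and fibroblast markers Col3a1 was higher, and of the bile duct, muscle and adipocyte markers measured 0 passed. The part of these markers in the results on the clock genes was not tested. The array medians ranged from 53.1 to 57.0, and the arrays correlated at 0.959 to 0.967 within DUhTP, 0.974 to 0.976 within DUC and 0.950 to 0.963 between lines.

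Other parts of the loop were taken from a list of 23 clock regulators, of which 17 were measured by 34 probe sets. Of these, 2 passed, beside 3.32% of all genes (1.92% higher and 1.4% lower in DUhTP). This list and those of outputs and cues below were chosen with earlier results of these data known. Their counts beside the share of all genes are therefore no test of the lists. Nr1d2, which encodes REV-ERB beta, fell, and Nfil3, the repressor at D-boxes, rose. In 1416958_at of Nr1d2 the intensity was 134, 157 and 166 in DUhTP and 298, 426 and 372 in DUC, with all DUhTP arrays far below the controls. The FC was -2.38 (log2 fold change -1.25 ± 0.17 SE, adjusted p = 0.0319 in limma). The dimmer probe set of Nr1d2, 1416959_at, was lower with separate lines but did not pass (FC -1.88, adjusted p = 0.117 in limma). In 1418932_at of Nfil3 the intensity was 437, 433 and 379 in DUhTP and 225, 243 and 221 in DUC, again with a wide gap. The FC was 1.81 (log2 fold change 0.86 ± 0.11 SE, adjusted p = 0.0310 in limma).

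The same list held several regulators that missed the threshold. Bhlhe40 (DEC1), which competes for E-boxes, had intensities of 194, 201 and 201 in DUhTP and 64.7, 131 and 110 in DUC (1418025_at). The lines did not overlap, and the adjusted p was 0.115 with no constant and 0.0195 with 16 added. It also passed with limma-trend and without the dimmest 33.3% of probe sets. The casein kinases that mark PER proteins for breakdown, Csnk1d (brightest probe set 1456727_a_at) and Csnk1a1 (1424827_a_at), stood at -0.31 (adjusted p = 0.155) and at -0.14 (adjusted p = 0.504) on the log2 scale. The other probe sets of Csnk1d differed in sign, from -0.38 (1418889_a_at, adjusted p = 0.316) to 0.17 (1437690_x_at, adjusted p = 0.602). Another probe set of Csnk1a1, 1428537_at, stood at -0.56 with separate lines (adjusted p = 0.176). Both kinase genes had a probe set that passed as lower with limma-trend. Fbxw11, part of the ubiquitin ligase that targets PER, gave 0.06 (1437468_x_at, adjusted p = 0.850), and Nono, a partner of PER proteins, gave -0.25 (1448103_s_at, adjusted p = 0.237). Chosen after their values were seen, Cry2, the other cryptochrome, gave -0.41 (1426383_at, adjusted p = 0.261), and Hlf, a further factor of the Dbp and Tef family, gave 0.06 and -0.25 (1434735_at and 1434736_at, adjusted p = 0.900 and 0.459). The median over the brightest probe sets of the 17 genes was -0.25. Of the 34 probe sets, 11 were separated lower and 4 higher, beside 15.8% and 13.6% of all probe sets.

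Outputs of the clock in liver were taken from a list of 27 genes, of which 24 were measured by 45 probe sets. Of these, 8 passed, 6 lower and 2 higher in DUhTP, beside 3.32% of all genes (1.4% lower and 1.92% higher), and the median log2 fold change over the brightest probe sets was -0.31. By the brightest probe set per gene 6 passed. As the list was chosen with earlier results known, an excess over all genes is not read from these counts. Usp2, a deubiquitinase with a strong daily rhythm, fell: 1417168_a_at had 20.2, 24.4 and 20.3 in DUhTP and 48.8, 95.3 and 95.8 in DUC. Its FC was -3.55 (adjusted p = 0.0432 in limma). The brighter probe set of Usp2, 1417169_at, was lower with separate lines but did not pass (FC -2.97, adjusted p = 0.129 in limma). Nampt, the rate-limiting enzyme of NAD salvage and a target of BMAL1, also fell, with 463, 313 and 444 in DUhTP and 843, 839 and 811 in DUC (1417190_at). The controls were within a narrow band and the FC was -2.07 (adjusted p = 0.0475 in limma). The dimmer probe set of Nampt, 1448607_at, was lower with separate lines but did not pass (FC -2.03, adjusted p = 0.0634 in limma).

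Cyp7a1, the rate-limiting enzyme of bile acid synthesis and a gene controlled by DBP and REV-ERB alpha, fell with the largest FC of the called outputs. In 1438743_at the intensity was 283, 136 and 251 in DUhTP and 1190, 865 and 938 in DUC, and the FC was -4.64 (adjusted p = 0.0320 in limma). The dimmer probe set of Cyp7a1, 1422100_at, was lower with separate lines but did not pass (FC -3.47, adjusted p = 0.0639 in limma). Alas1, the first enzyme of haem synthesis (haem is a ligand of REV-ERB proteins), fell by an FC of -2.59 (1455282_x_at, adjusted p = 0.0322). Its brighter probe set 1424126_at was lower with separate lines but did not pass (FC -2.32, adjusted p = 0.0652 in limma). The triglyceride lipase gene Pnpla2 (FC -2.44, 1428143_a_at, adjusted p = 0.0147) and Upp2, a uridine phosphorylase (FC -1.94, 1451548_at, adjusted p = 0.0201), fell as well. In the other direction, Srebf1, which encodes the lipogenic factor SREBP-1, rose by an FC of 2.98 (1426690_a_at, adjusted p = 0.0263), and Slc2a2, the hepatic glucose transporter, by 1.79 (1449067_at, adjusted p = 0.0324).

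**Figure D4:**
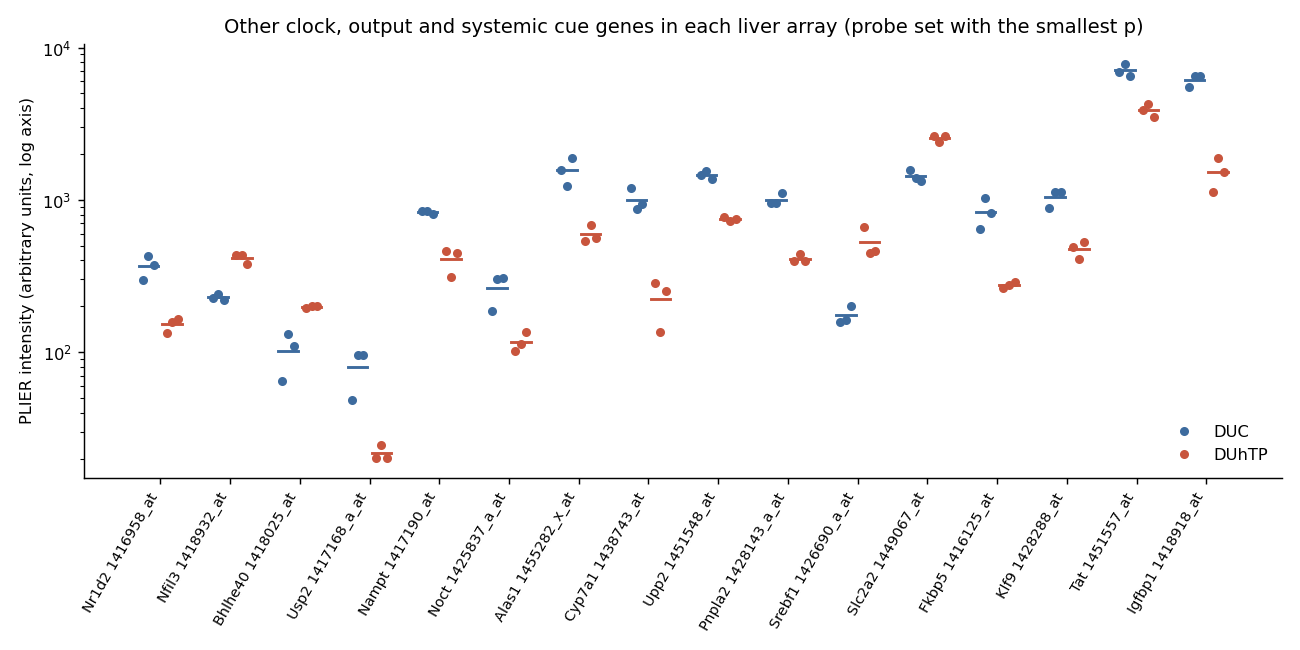
Intensity (PLIER, arbitrary units, log axis) in each array of 16 genes outside the 10 members, each by its probe set with the smallest p, DUC in blue and DUhTP in red, with a bar at the mean. The genes were picked among those that passed with no constant or with 16 added, so that the lines do not overlap in any of the 16 is no further result. Nfil3, Bhlhe40, Srebf1 and Slc2a2 are the ones with DUhTP above DUC.

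The outputs with the highest intensity that did not pass were Cyp2b10 (log2 fold change -0.15 in its brightest probe set 1425645_s_at), Insig2 (-0.34 in 1417982_at), Fmo5 (-0.40 in 1450332_s_at) and Elovl3 (0.21 in 1420722_at), with adjusted p from 0.199 to 0.736 in these probe sets. The other probe sets of Insig2, 1417980_a_at and 1417981_at, lay further from 0, at -0.77 and -0.74 (adjusted p = 0.0550 and 0.0564), and so did 1421709_a_at of Fmo5, at -0.68 (adjusted p = 0.128). The lines were separate in all 3. With 16 added, 13 of the 24 outputs passed, 11 lower and 2 higher, beside 11.3% of all genes (6% lower and 5.31% higher), and the added genes were Noct, Insig2, Lpin1, Cdkn1a and Fmo5. Noct, the rhythmic mRNA-associated protein nocturnin, had 102, 114 and 136 in DUhTP and 185, 300.2 and 306 in DUC (1425837_a_at, adjusted p = 0.0720 with no constant and 0.00867 with 16 added). Lpin1 had 95.3, 455 and 316 in DUhTP and 1619, 2357 and 2243 in DUC (1418288_at). Its FC of -8.55 was larger than that of any called output, with an adjusted p of 0.0599 in limma with no constant and 0.00280 with 16 added. Of the 45 probe sets, 25 were separated lower (15.8% of all probe sets were) and 5 higher (13.6% of all).

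Signals from the body also set the liver clock, and 26 of 27 listed genes that answer to glucocorticoid, fasting and feeding, or body temperature were measured by 54 probe sets. Of these, 7 passed, 6 lower and 1 higher in DUhTP, again beside 3.32% of all genes (1.4% lower and 1.92% higher), with a median of -0.47 over the brightest probe sets. The same limit on the choice of the list holds here. Fkbp5, a co-chaperone induced by glucocorticoid, fell: 1416125_at had 264, 277 and 291 in DUhTP and 645, 1021 and 818 in DUC (FC -2.94, adjusted p = 0.0240 in limma). Klf9, also induced by glucocorticoid and by the clock, fell by an FC of -2.20 (1428288_at, adjusted p = 0.0335). Among the genes of fasting, Igfbp1, an insulin-repressed binding protein, had 1130, 1890 and 1530 in DUhTP and 5465, 6477 and 6480 in DUC (1418918_at, FC -4.12, adjusted p = 0.0183). Ppargc1a, the coactivator PGC-1 alpha (FC -2.22, 1437751_at, adjusted p = 0.0228), Tat, tyrosine aminotransferase (FC -1.84, 1451557_at, adjusted p = 0.0370), and Pck1 of gluconeogenesis (FC -1.73, 1423439_at, adjusted p = 0.0290) fell with it. The small heat shock protein gene Hspb1 rose by an FC of 1.82 (1422943_a_at, adjusted p = 0.0342).

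Probe sets of 1 gene did not always move alike: of the 7 probe sets of Klf9 the log2 fold changes ran from -1.51 to 0.06, the dim 1455209_at of Pck1 gave 0.61 with overlapping lines (adjusted p = 0.745), and the dim 1428591_at of the output gene Pnpla2 gave -0.04 (adjusted p = 0.922). Other genes of the cue list missed the threshold. The metallothionein genes stood at -0.0023 on the log2 scale for Mt1 (1422557_s_at, adjusted p = 0.996) and at -0.22 for Mt2 (1428942_at, adjusted p = 0.453). Errfi1 gave -0.24 (1416129_at, adjusted p = 0.295) and the chaperone gene Hspa8 -0.42 (1455789_x_at, adjusted p = 0.144). In 1420622_a_at and 1420623_x_at of Hspa8 the values were -0.72 and -0.65 with separate lines (adjusted p = 0.0809 and 0.0764), and both passed with 16 added (adjusted p = 0.0139 and 0.0142). Tsc22d3, a glucocorticoid-induced gene named after its values were seen, gave 0.34 to 0.41 in its 3 probe sets with overlapping lines (adjusted p from 0.510 to 0.621). Of the 54 probe sets, 23 were separated lower and 2 higher, where 15.8% and 13.6% of all probe sets were. With 16 added, 11 of the 26 passed, 10 lower and 1 higher, beside 6% of all genes lower and 5.31% higher.

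**Figure D5:**
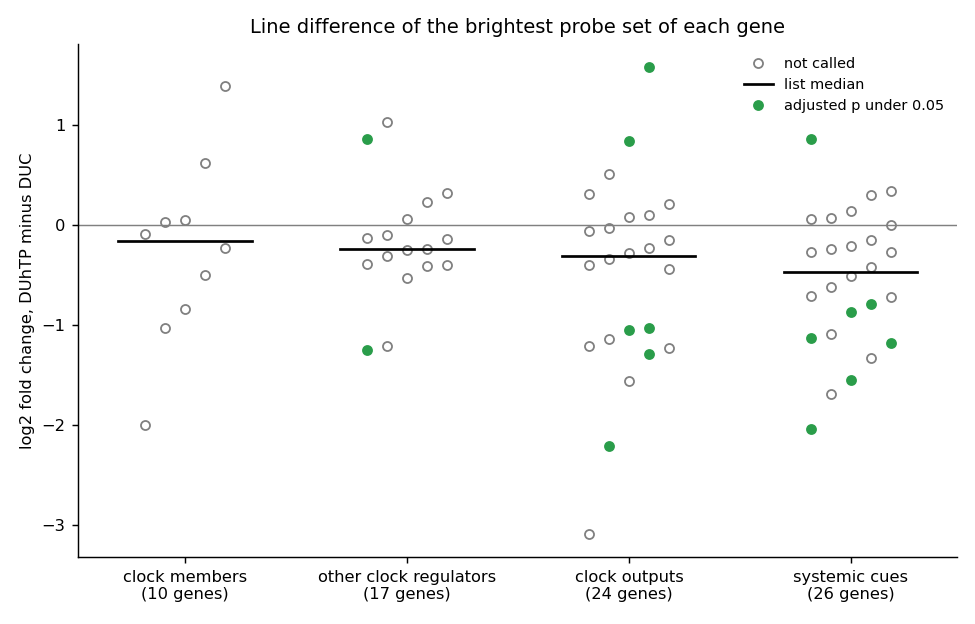
Log2 fold change, DUhTP minus DUC, of the brightest probe set of each gene, for the 10 clock members, 17 other clock regulators, 24 clock outputs and 26 systemic cue genes; green points had an adjusted p under 0.05 in that probe set, and bars mark the medians. All 4 medians lie below 0, from -0.17 for the members to -0.47 for the cues, and no member is green.

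The called genes of these lists depended on all 6 arrays. Leaving out any one array left 0 of the 2 regulators. Of the outputs, 1 passed without DUC replicate 1 (Usp2), 1 without DUhTP replicate 1 (Lpin1, which was not called with all 6 arrays), 2 without DUhTP replicate 2 (Cyp7a1 and Pnpla2) and 0 without any of the other 3. Of the cues, 1 passed without DUC replicate 1 (Fkbp5), 1 without DUhTP replicate 1 and 1 without DUhTP replicate 2 (Igfbp1 in both), and 0 without any of the other 3. None of the 20 called probe sets of the lists changed sign. With 16 added and each array left out in turn, 2 to 3 regulators, 11 to 13 outputs and 7 to 12 cues passed. No share of all genes is given for these fits, so these counts show only how far the calls held.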

How the data were processed

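Liver RNA of 3 DUhTP and 3 DUC arrays (Affymetrix Mouse Genome 430A 2.0) was compared. Global scaling in GCOS 1.1.1 and PLIER estimation were done by the authors, and the deposited values are linear intensities in arbitrary units with no depth or detection call, so precision is limited by the number of arrays. The PLIER version and any added constant are not given in the sources used here. Of 22690 probe sets, 64 controls were left out and 22626 tested. The annotation gave 1 symbol for 20380, several for 691 and none for 1555, and 20351 of the 20380 matched RefSeq by gene number with 0 symbols changed.

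Intensities, the lowest being 0.101, were logged to base 2 with no constant and fitted in limma 3.58.1 (R 4.3.3) with lmFit and eBayes, Benjamini-Hochberg adjusted over all tested probe sets, and called at an adjusted p under 0.05 at any FC. A gene was called where at least 1 of its probe sets was. The code was tested on simulated data. Every member was named with every probe set, and of the other 3 lists the called genes, or the 8 with the smallest p, and up to 4 not called of the highest intensity. Genes outside this rule were named after their values were seen, among them those that passed with 16 added and not without it. The members and lists were chosen with earlier results of these data known. Alternatives were 16 added, quantile normalization, limma-trend, array weights, leaving out the dimmest 33.3% of probe sets, the brightest probe set per gene, a replicate block and each array left out.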

Additional observations from a re-analysis of the deposited data

How the results depend on the processing

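Over all probe sets 546 passed, against 1951 with 16 added, 1851 without the dimmest 33.3% of probe sets, 2350 with limma-trend and 1 to 122 with an array left out. Of the member probe sets, 0 passed, against 4 with 16 added, 3 without the dimmest, 5 with limma-trend and 1 with array weights, and of the member genes 0, against 3, 2, 4 and 1 in the same order. The fit without the dimmest does not hold the probe sets of Npas2 and Per2. Quantile normalization gave 0 member genes. Of the other clock regulators 2 passed, against 5 with limma-trend and 0 with any array left out. Of the outputs 8 passed, against 13 with 16 added, 13 without the dimmest, 14 with limma-trend and 0 to 2 with an array left out. By the brightest probe set per gene 6 outputs passed, 4 lower and 2 higher. Of the cues 7 passed, against 11 with 16 added, 13 with limma-trend and 0 to 1 with an array left out. Leaving out arrays with 16 added, which was chosen after seeing the data, gave 0 to 5 member genes and 7 to 12 cues, with no share of all genes to set beside them. The line difference in the phase score stayed between -0.87 and -1.54. Among the brightest probe sets, signs turned for Arntl (-0.099 to 0.21 with an array left out), Clock (-0.39 to 0.054) and Per3 (-0.056 to 0.18, and -0.050 with array weights), and among the others 1438033_at of Tef turned to 0.025 without DUhTP replicate 2 and 1421036_at of Npas2 to 0.031 without DUhTP replicate 3. The cause of these changes was not tested. The replicate numbers do not pair the arrays (correlations of deviations 0.003, 0.005 and 0.067), and with the replicate block 0 probe sets and 0 regulators, outputs or cues passed in limma, with 4124 probe sets at an unadjusted p under 0.05. Intensities carry no background call, so differences of the 6 member probe sets among the dimmest 33.3% are the least certain.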
